A study of Mus musculus with 16 samples.

Results

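Cholesterol synthesis, uptake and efflux genes were followed in liver and in brown, epididymal white and inguinal white fat of mice given sunitinib, a multikinase inhibitor sold as Sutent, or vehicle. The genes were chosen by name, with earlier results of these data known. The list held 30 symbols for 29 genes, since Sc4mol and Msmo1 are names of the same gene, which the tables carry as Sc4mol. They were 29 of 24934 genes with a row in any of the 4 deposited tables. Of these, 23 act in synthesis, its control by the transcription factor SREBP2, and sterol transfer, and are called the SREBP2 group here. The other 6 are Nr1h3, which encodes the sterol receptor LXR-alpha, and the LXR targets Abca1, Abcg1, Abcg5, Abcg8 and Mylip, called the LXR group.

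Total RNA was sequenced from C57BL/6 mice aged 24 weeks. Each of these 4 tissues had 2 libraries from mice on vehicle and 2 from mice on sunitinib, 16 in all. The series gives 8 mice, 4 per treatment. The dose, the route, the length of treatment and the sex were not given in the sources used here. No label ties a library to a mouse or says whether mice were pooled. The p-values therefore reflect nothing but the spread among the libraries at hand, which may be technical. The sunitinib livers are titled replicates 3 and 4, and the other groups have replicates 1 and 2. The data columns number these livers 1 and 2 instead, and the titles are used here.

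Cells make cholesterol from acetyl-CoA through mevalonate, isoprenoid diphosphates, squalene and lanosterol. When sterol in the endoplasmic reticulum is low, SCAP escorts SREBP2 to the Golgi, where it is cut and released to switch on the enzymes of the whole route together. When sterol is plentiful, the INSIG proteins hold SCAP back, and oxysterols activate LXR, which drives the ABC transporters that export sterol. Liver makes, secretes and excretes much of the body's cholesterol, while adipocytes store a large pool of free cholesterol in the lipid droplet and the plasma membrane.

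The promoters of the genes on which the results turn are shown first. SREBP2 binds a sterol regulatory element and works with NF-Y, which binds the CCAAT box. RefSeq promoters of GRCm38.p6 were found for 24 of the 29 genes. None was in the table for Abcg1, Fdft1, Fdps, Sqle and Stard4. A gene with several promoters counted as a match if any of them held the letters. In the 250 bases before the start, CCAAT was present on either strand in 17 of 19 SREBP2-group genes (89.5%). It was lacking in Acat2 and Scap. In the LXR group it was present in 2 of 5 genes, Abcg8 and Mylip. Over all genes in the table the share was 37.5%. The sterol element letters TCACNCCAC were in 1 of 19 SREBP2-group genes, Hmgcs1, against 1.22% of all genes. The LXR direct repeat, AGGTCA repeated after a gap of 4 bases, was in none of the promoters of either group and in 0.0148% of all genes. A match is a description of the letters, and no match says only that these letters are not in this window. Stretches with the CCAAT box are printed below for Hmgcs1, the enzyme gene with the largest difference in brown and inguinal fat, and for the 4 genes that fell in epididymal fat. Capitals mark the NF-Y box, written CCAAT or ATTGG on the opposite strand, and in Hmgcs1 also the sterol element. The regions are chr13:119690101-119690330 for Hmgcs1, chr5:28071176-28071220 for Insig1, chr10:76531523-76531567 for Lss, chr7:143830109-143830189 for Dhcr7, and chr9:42264301-42264344 for Sc5d, which is on the minus strand while the others are on the plus strand.
Hmgcs1: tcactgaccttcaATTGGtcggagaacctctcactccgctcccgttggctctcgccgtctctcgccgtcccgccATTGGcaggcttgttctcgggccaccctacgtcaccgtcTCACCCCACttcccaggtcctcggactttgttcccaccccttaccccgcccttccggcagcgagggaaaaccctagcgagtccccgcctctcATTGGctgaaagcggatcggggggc
Insig1: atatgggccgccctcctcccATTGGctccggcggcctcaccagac
Lss: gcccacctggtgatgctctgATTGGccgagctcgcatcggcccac
Sc5d: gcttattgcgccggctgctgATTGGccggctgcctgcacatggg
Dhcr7: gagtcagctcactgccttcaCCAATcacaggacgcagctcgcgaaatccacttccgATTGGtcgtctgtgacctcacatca
Hmgcs1 held 3 NF-Y boxes and Dhcr7 held 2. Lss, Sc5d and Insig1 held 1 each. The Dhcr7 stretch belongs to 1 of 3 promoters that the table gives for this gene. It was printed because it held the most boxes, and the other Dhcr7 promoters held no NF-Y box.

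The values are regularized log2 expression (rlog) as deposited, a log scale on which small counts are pulled towards the mean of the gene. Differences are sunitinib minus vehicle within a tissue, with the SE of limma and n = 2 per group. A gene passed when its adjusted p over all genes tested was below 0.05. A fit with 1 library left out holds a single library in that arm, and its spread comes from the other arm. Tables were normalized separately, so levels are compared within a tissue only. Testing was limited to genes whose mean in a tissue reached 3. This kept 22 of 23 SREBP2-group genes in each fat and all 23 in liver, and 4 of 6 LXR-group genes in each fat and all 6 in liver. Msmo1 stood between 1.58 and 2.82 in the fats and between 3.85 and 4.00 in liver. Abcg5 was below 3 in the fats, where Abcg8 was below 3 or, in brown fat, without a row. The mean of the hepatocyte markers in liver, and of the adipocyte markers in each fat, differed by 0.11 at most between the treatments. Single markers went both ways, from −0.19 to 0.27 for hepatocyte markers in liver and up to 0.55 for the adipocyte marker Retn in epididymal fat, and the adipocyte mean of the sunitinib libraries of inguinal fat was 0.19 and −0.30. Markers of other cell types differed between libraries of the fats, and their values stand beside the results they touch. As these are bulk samples, fewer cells of a type and less RNA per cell cannot be told apart.

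In epididymal white fat, Insig1, Dhcr7, Lss and Sc5d fell with sunitinib. These are a sterol sensor and 3 enzymes of the late steps of synthesis. They were 4 of 22 SREBP2-group genes tested, where 2.06% of all genes fell. No member rose, where 0.277% of all genes did. At an unadjusted p below 0.05 the SREBP2 group had 10 lower and 0 higher genes, beside 11.9% lower and 8.14% higher over all genes. Both sunitinib libraries lay below both vehicle libraries for 12 of 22 and above them for 5, against 26.8% and 27% of all genes. The median difference was −0.19, with 15 of 22 below 0, beside a median of 0.0089 and 46.7% below 0 over all genes. Without vehicle replicate 1 or vehicle replicate 2, 0 members passed in limma, with smallest adjusted p-values of 0.216 and 0.273 and 0% of all genes called in either fit, while the differences of the 4 genes kept between −0.84 and −0.42 with any library left out. Without a filter on low values 2 members, Dhcr7 and Insig1, passed, where 0.845% of all genes fell.

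All 9 macrophage markers tested in epididymal fat lay below 0 and 7 of them fell, with a median of −1.11. Their mean, relative to the mean of the tissue, was 0.51 and 0.57 in the vehicle libraries and −0.53 and −0.55 in the sunitinib libraries. All 7 epithelial and epididymal duct markers lay above 0, with means of −1.21 and −0.53 with vehicle and 1.35 and 0.39 with sunitinib. All 7 endothelial markers lay below 0, with a median of −0.36 and means of 0.0024 and 0.38 with vehicle and −0.22 and −0.16 with sunitinib. The groups did not overlap for any of the 3 lists, and their part in the sterol genes' differences was not tested.

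In inguinal white fat most SREBP2-group genes lay below 0, and no member passed. The SREBP2-group median was −0.32, with 17 of 22 genes below 0, against a median of 0.0098 and 48.6% below 0 over all genes. In limma 0 of 22 passed in either direction, and over all genes 0% were called lower and 0% higher. Lower at an unadjusted p below 0.05 were 11 members, and 0 were higher, where 8.8% and 3.88% of all genes were. Both sunitinib libraries lay below both vehicle libraries for 15 of 22 and above for 1, against 26.4% and 24% of all genes.

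The calls in inguinal fat depended on which libraries were fitted. With limma fitted once over the 4 tissues 8 members passed, all lower, where 11.1% of all genes fell and 10.8% rose. Without sunitinib replicate 1, 7 members passed as lower and Srebf2 as higher, where 11.6% of all genes fell and 16.1% rose. Without sunitinib replicate 2, 7 passed, all lower, where 3.02% of all genes fell and 1.72% rose. Sunitinib replicate 2 stood apart in lymphocyte and skeletal muscle markers. Lymphocyte markers in this fat had means of −1.71 and −1.01 with vehicle and −0.27 and 2.98 with sunitinib, and skeletal muscle markers 2.15 and 0.74 with vehicle and 0.31 and −3.20 with sunitinib. The last value of each belongs to replicate 2. All 9 macrophage markers tested lay below 0, with a median of −0.47, and 0 passed, with 1 at an unadjusted p below 0.05. All 7 endothelial markers lay below 0 as well, with a median of −0.37, and 0 passed, with 3 at an unadjusted p below 0.05. The part of these lists in the members' values was not tested. The SREBP2-group median was −0.41 without that library and −0.32 without replicate 1.

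In liver nearly the whole SREBP2 group lay lower, by amounts that differed between the sunitinib livers. Below 0 were 22 of 23 genes, with a median of −0.26, beside 0.0027 and 48.6% for all genes. Insig2 was the exception. In limma 0 members passed in either direction, where 0.0726% of all genes fell and 0.121% rose. Of the group, 12 were lower and 1 higher at an unadjusted p below 0.05, against 5.17% and 3.47% of all genes. Both sunitinib libraries lay below both vehicle libraries for 16 of 23 and above for 1, against 19.2% and 18.3% of all genes. Against the vehicle mean, the SREBP2-group median was −0.47 in sunitinib replicate 3 and −0.09 in replicate 4, with 22 and 18 of 23 genes below 0. Replicate 3 lay below replicate 4 for 22 of 23 genes, by a median of 0.40, while the 2 vehicle livers differed by a median of 0.06. With 1 sunitinib liver left out, the other stands alone, so the calls describe that library against the vehicle livers. Without replicate 4, 16 members passed as lower, where 2.25% of all genes fell. Without replicate 3, Insig2 alone passed, as higher, where 0.339% of all genes rose. Without vehicle replicate 1, Dhcr7 alone passed, as lower, where 0.96% of all genes fell.

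In brown fat the SREBP2 group was mixed. The median was −0.10, with 16 of 22 genes below 0, against −0.0046 and 51.6% for all genes. In limma 0 members passed, and 0% of all genes were called lower or higher. Lower and higher at an unadjusted p below 0.05 were 5 and 2 members, where 6.98% and 9.13% of all genes were. Both sunitinib libraries lay below both vehicle libraries for 10 of 22 and above for 5, against 24% and 26.2% of all genes. Without vehicle replicate 1, Hmgcs1, Idi1 and Sc5d passed as lower and Stard4 as higher, where 6.28% of all genes fell and 3.61% rose. Without vehicle replicate 2 the first 3 of these passed, where 2.09% fell. The median was −0.055 and −0.15 in the same fits. The vehicle libraries of brown fat differed in skeletal muscle markers, with means of −1.88 and 2.08 against 0.29 and −0.49 with sunitinib. All 7 endothelial markers lay above 0, with a median of 0.35. All 8 macrophage markers tested lay below 0, with a median of −0.13. Their part in the members' values was not tested.

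**Figure D1:**
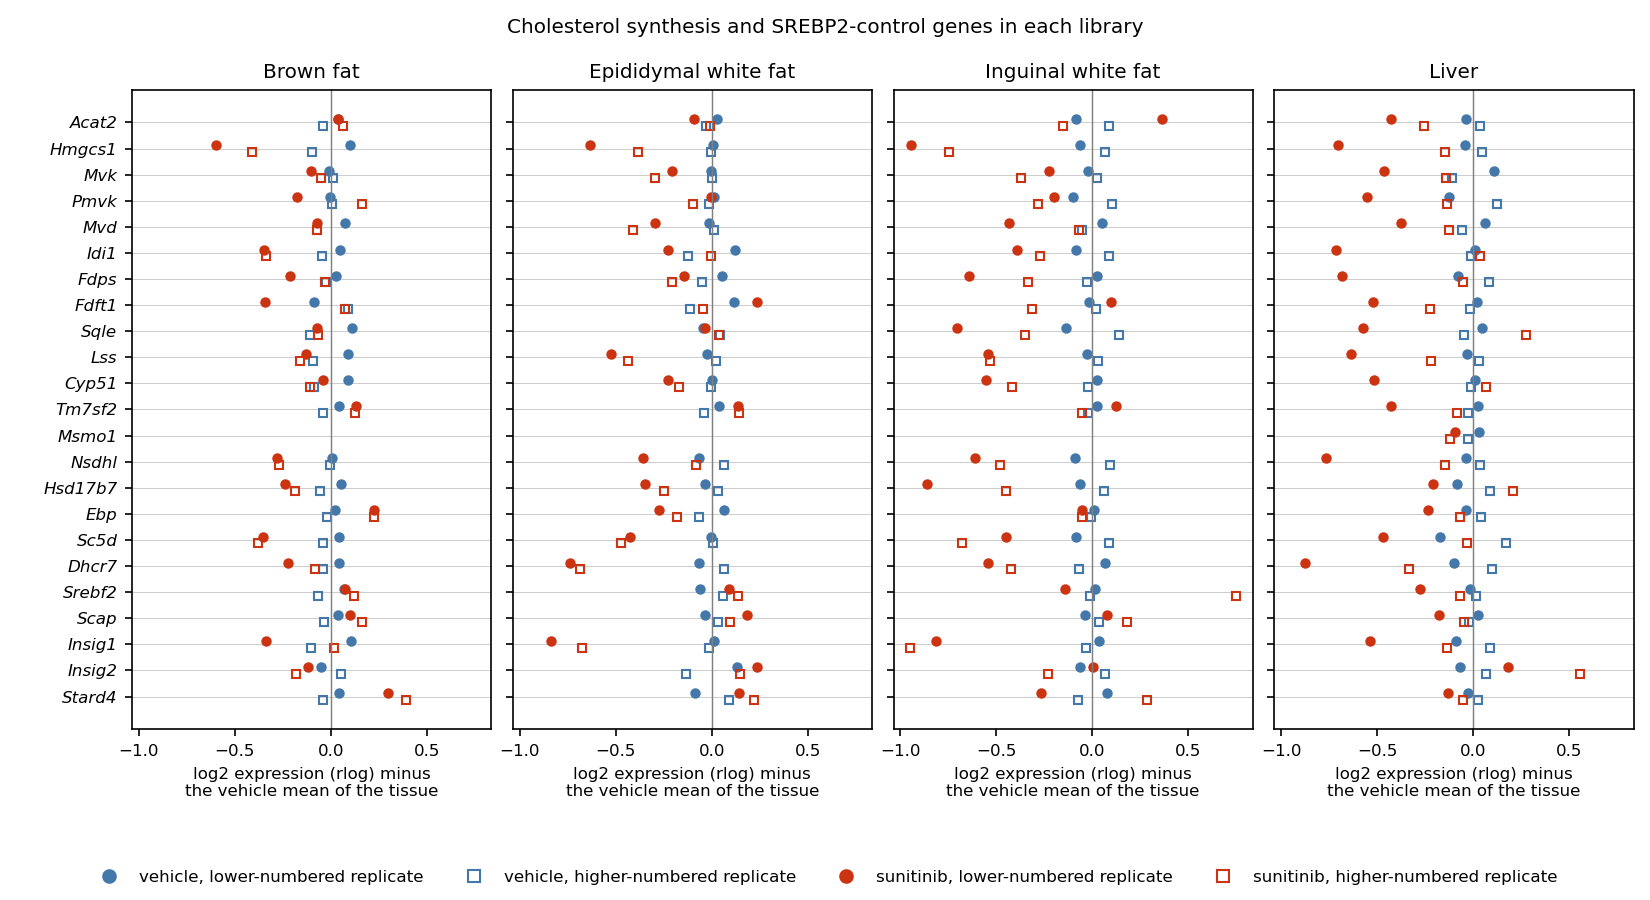
Each point is 1 library's log2 expression of a SREBP2-group gene minus the vehicle mean of the tissue (horizontal axis, rlog units), with genes in pathway order, blue for vehicle, red for sunitinib, circles for the lower and squares for the higher replicate number. Hmgcs1, Mvk, Lss, Nsdhl and Dhcr7 have both red points left of both blue points in all 4 panels, and the red circles of liver, replicate 3, lie left of the red squares for 22 of 23 genes.

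In the mevalonate segment, all 7 genes lay below 0 in epididymal fat and in liver, and 6 of 7 in brown and inguinal fat. The segment medians were −0.08 in brown fat, −0.17 in epididymal fat, −0.30 in inguinal fat and −0.34 in liver. Hmgcs1, which makes HMG-CoA and feeds the rate-limiting step, had the largest difference of the segment in each tissue. In inguinal fat it read 12.57 and 12.70 with vehicle and 11.69 and 11.89 with sunitinib, a difference of −0.85 ± 0.13 (limma adjusted p = 0.308). In brown fat it read 11.57 and 11.37 against 10.87 and 11.06, a difference of −0.51 ± 0.10 (limma adjusted p = 0.228). Both sunitinib libraries were the lower ones in each fat, and the groups did not overlap. In epididymal fat Hmgcs1 went from 12.80 and 12.79 to 12.16 and 12.41, a difference of −0.51 ± 0.10 with a limma adjusted p of 0.083. In liver it was 10.72 and 10.80 with vehicle and 10.06 and 10.61 with sunitinib, so that replicate 3 lay far lower than replicate 4 (difference −0.43 ± 0.15).

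Idi1, which isomerizes isopentenyl diphosphate, lay at −0.34 ± 0.07 in brown fat, −0.11 ± 0.12 in epididymal fat, −0.33 ± 0.12 in inguinal fat and −0.34 ± 0.19 in liver. Its groups overlapped in epididymal fat and liver. Mvd, the decarboxylase that makes isopentenyl diphosphate, lay at −0.35 ± 0.07 in epididymal fat (limma adjusted p = 0.085), −0.25 ± 0.18 in inguinal fat, −0.25 ± 0.10 in liver and −0.07 ± 0.07 in brown fat. Mvk, the mevalonate kinase, differed by −0.30 in inguinal fat and liver, −0.25 in epididymal fat and −0.08 in brown fat, with no overlap of the groups in any tissue. Pmvk, the next kinase, stood at −0.34 in liver and −0.24 in inguinal fat, and between −0.05 and −0.01 in the other fats. Fdps, the farnesyl diphosphate synthase, had its largest difference in inguinal fat, −0.49 ± 0.15. Acat2, the cytosolic thiolase that opens the route, differed by −0.34 ± 0.08 in liver, where its limma adjusted p of 0.201 was the smallest among the members, and by −0.05 to 0.10 in the fats. It shares near-identical sequence with the neighbouring Acat3, so its values are uncertain.

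The squalene segment has 3 genes, and its median was −0.13 in brown fat, 0.0028 in epididymal fat, −0.53 in inguinal fat and −0.37 in liver. Lss, which folds oxidosqualene into lanosterol, fell in epididymal fat. Its libraries there read 10.02 and 10.06 with vehicle and 9.52 and 9.61 with sunitinib, a difference of −0.48 ± 0.06 (limma adjusted p = 0.043). Both sunitinib libraries were lower by several times the gap between the vehicle libraries. The call was lost without a filter on low values, at a limma adjusted p of 0.0718, and missed the threshold after quantile normalization, at 0.05003. In inguinal fat Lss went from 9.63 and 9.69 to 9.12 and 9.13, a difference of −0.54 ± 0.09, and in liver from 9.39 and 9.46 to 8.79 and 9.20, a difference of −0.43 ± 0.12. In brown fat it read 8.48 and 8.30 against 8.26 and 8.23. The groups were apart in each tissue, by little in brown fat.

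The upstream members of this segment did not pass in any tissue. Sqle, the epoxidase that makes oxidosqualene, differed in epididymal fat by 0.0028 ± 0.071 with overlapping groups. With the libraries centred on their medians the value was −0.0066. In inguinal fat Sqle differed by −0.53 ± 0.19 without overlap, and in liver by −0.15 ± 0.21, where sunitinib replicate 3 was the lowest library at 8.49 and replicate 4 the highest at 9.34. Fdft1, the squalene synthase, stood at 0.10 ± 0.13 in epididymal fat and −0.11 ± 0.17 in inguinal fat with overlap, and at −0.37 ± 0.10 in liver, where both sunitinib libraries lay lower.

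From lanosterol to cholesterol, 8 genes were followed. Below 0 were 5 of 7 tested in brown fat, 6 of 7 in each white fat and 8 of 8 in liver, with medians of −0.15, −0.23, −0.49 and −0.24 in the order brown, epididymal, inguinal, liver. Dhcr7, the reductase that makes cholesterol from 7-dehydrocholesterol, fell in epididymal fat by 0.71 ± 0.08 (limma adjusted p = 0.028). Its libraries read 8.55 and 8.68 with vehicle and 7.88 and 7.93 with sunitinib. The gap between the groups was larger than that within either. In liver Dhcr7 read 9.29 and 9.49 with vehicle and 8.52 and 9.06 with sunitinib, a difference of −0.61 ± 0.15 (limma adjusted p = 0.225), the largest of all members there. Inguinal fat went from 8.05 and 7.91 to 7.43 and 7.56, a difference of −0.48 ± 0.13. Brown fat went from 6.97 and 6.89 to 6.71 and 6.85, a difference of −0.15 ± 0.08. The groups stayed apart in all 4 tissues, with the narrowest gap in brown fat.

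Sc5d, the desaturase one step ahead of Dhcr7, fell in epididymal fat. Its libraries read 10.89 and 10.90 with vehicle and 10.47 and 10.42 with sunitinib, a difference of −0.45 ± 0.06 (limma adjusted p = 0.040). The vehicle libraries were nearly equal and the groups were well apart. The call was lost with 1 fit over the 4 tissues, at a limma adjusted p of 0.134, and without a filter, at 0.0702. In brown fat Sc5d went from 8.80 and 8.72 to 8.40 and 8.38, a difference of −0.37 ± 0.06 (limma adjusted p = 0.228). Inguinal fat went from 10.73 and 10.90 to 10.37 and 10.14, a difference of −0.56 ± 0.13. In liver, with values of 12.07 and 12.41 against 11.77 and 12.21, the groups overlapped.

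Nsdhl, which removes the carbon at position C4 of the sterol ring, was lower without overlap in each tissue. In liver it read 10.17 and 10.24 with vehicle and 9.44 and 10.06 with sunitinib, a difference of −0.46 ± 0.16, most of it in replicate 3. The difference was −0.28 ± 0.06 in brown fat, −0.22 ± 0.11 in epididymal fat and −0.55 ± 0.12 in inguinal fat. Hsd17b7, its partner in this removal, differed by −0.66 ± 0.19 in inguinal fat, −0.30 ± 0.07 in epididymal fat and −0.21 ± 0.07 in brown fat, and by −0.0025 ± 0.13 in liver, where the sign changed with quantile normalization (0.0036). Cyp51, the lanosterol demethylase, stood at −0.49 ± 0.11 in inguinal fat and −0.20 ± 0.06 in epididymal fat, and overlapped in brown fat and liver. Msmo1 was tested in liver only, at −0.11 ± 0.04 on values low enough to be strongly shrunk. Whether its row counts all reads of the gene was not tested.

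Ebp and Tm7sf2 took different signs in different tissues. Ebp, the sterol isomerase, differed by 0.22 ± 0.06 in brown fat, where its libraries read 7.71 and 7.67 with vehicle and 7.92 in both with sunitinib. The epididymal difference was −0.23 ± 0.08, from 9.99 and 9.86 to 9.65 and 9.74. The groups were apart in both fats, in opposite directions. In inguinal fat and liver it stood at −0.05 and −0.15. Tm7sf2, a sterol reductase that acts after Cyp51, lay at 0.13 and 0.14 in brown and epididymal fat, 0.03 in inguinal fat and −0.26 in liver. The inguinal value was −0.00045 with the libraries centred on their medians.

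Among the genes that control SREBP2, Insig1 had the largest difference of all members in both white fats. It is itself an SREBP2 target and its protein retains SCAP. In epididymal fat it read 12.11 and 12.08 with vehicle and 11.26 and 11.42 with sunitinib, and it fell by 0.76 ± 0.08 (limma adjusted p = 0.027). The inguinal libraries went from 11.825 and 11.755 to 10.98 and 10.84, a difference of −0.88 ± 0.10 (limma adjusted p = 0.285). In both white fats the groups stood far apart. In liver it went from 11.45 and 11.63 to 11.002 and 11.40, a difference of −0.34 ± 0.12, with a narrow gap. In brown fat, from 11.90 and 11.69 to 11.46 and 11.81, the groups overlapped.

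Insig2, which binds SCAP too but is not driven by SREBP2, lay above 0 in liver. Its libraries read 10.91 and 11.04 with vehicle and 11.16 and 11.53 with sunitinib, a difference of 0.37 ± 0.12 (limma adjusted p = 0.377). It was the single SREBP2-group gene above 0 there, without overlap, and replicate 4 was higher than replicate 3. In epididymal fat Insig2 went from 10.46 and 10.19 to 10.56 and 10.47, a difference of 0.19 ± 0.11. In brown fat it went from 8.57 and 8.68 to 8.50 and 8.44, a difference of −0.15 ± 0.07. In inguinal fat, from 10.19 and 10.32 to 10.26 and 10.02, the groups overlapped.

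The transcript of SREBP2 itself, Srebf2, did not pass in any tissue. In epididymal fat it read 9.67 and 9.79 with vehicle and 9.82 and 9.87 with sunitinib, a difference of 0.11 ± 0.07, so that it stood above 0 where 4 genes of its group fell. In brown fat it read 8.61 and 8.48 against 8.62 and 8.67, and in liver 9.31 and 9.34 against 9.05 and 9.26, a difference of −0.17 ± 0.09. The groups were apart in these tissues by small margins. In inguinal fat Srebf2 read 9.61 and 9.58 with vehicle and 9.45 and 10.35 with sunitinib, where replicate 2 was far above the other libraries. The difference was 0.30 ± 0.32, and −0.14 without that library, which also had the highest lymphocyte marker mean. Scap, the escort protein, stood at 0.13, 0.14 and 0.13 in brown, epididymal and inguinal fat and at −0.11 in liver, without overlap in each tissue.

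Stard4, a soluble carrier that moves sterol between membranes and is an SREBP2 target in many cells, lay above 0 in brown fat. It read 6.41 and 6.325 with vehicle and 6.66 and 6.76 with sunitinib, a difference of 0.34 ± 0.07 (limma adjusted p = 0.228). The epididymal difference was 0.18 ± 0.09, also with both sunitinib libraries higher. In liver it stood at −0.09 ± 0.07, and in inguinal fat, where the groups overlapped, at 0.0075 ± 0.24, or −0.026 with the libraries centred on their medians.

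**Figure D2:**
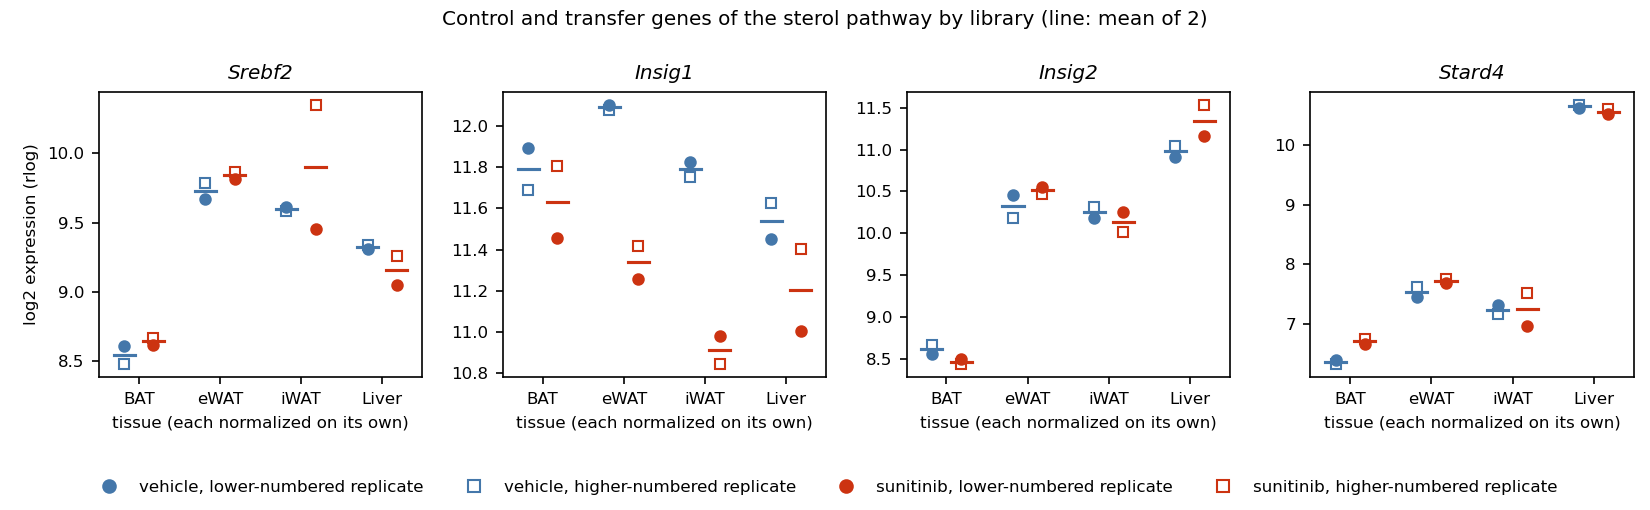
Log2 expression (rlog, vertical axis, a separate scale per panel) of Srebf2, Insig1, Insig2 and Stard4 in every library of the 4 tissues, with blue for vehicle, red for sunitinib, circles and squares for the lower and higher replicate number and a line for the mean of 2. Insig1 is lower with sunitinib in both white fats, from 12.11 and 12.08 to 11.26 and 11.42 in epididymal fat, and the Srebf2 square at 10.35 is sunitinib replicate 2 of inguinal fat.

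In the LXR group limma called 0 genes in any tissue. The background shares of the 4 comparisons are those given above for each tissue. At an unadjusted p below 0.05 there were 1 higher in brown fat, 2 lower in epididymal fat, 1 higher in inguinal fat and 1 lower in liver. The median difference was 0.11 over 4 genes in brown fat, −0.18 over 4 in epididymal fat, 0.17 over 4 in inguinal fat and −0.00017 over 6 in liver. In brown fat the median was −0.013 without sunitinib replicate 1. Below 0 were 1, 4, 1 and 3 genes in the same order.

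Nr1h3, the gene of LXR-alpha, read 10.12 in both vehicle libraries of brown fat and 10.35 and 10.31 with sunitinib, a difference of 0.21 ± 0.06 (limma adjusted p = 0.239), without overlap. Epididymal fat went from 11.25 and 11.21 to 11.13 and 11.04, a difference of −0.14 ± 0.06. In inguinal fat, from 10.95 and 11.06 to 11.25 and 10.83, and in liver, from 10.95 and 10.85 to 10.99 and 10.90, the groups overlapped.

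Abcg1, which passes cholesterol to high-density lipoprotein, took opposite directions in the white fats. In epididymal fat it read 10.36 and 10.15 with vehicle and 9.77 and 9.84 with sunitinib, a difference of −0.45 ± 0.09 (limma adjusted p = 0.080). In inguinal fat it read 9.80 and 9.68 with vehicle and 10.09 and 10.34 with sunitinib, a difference of 0.47 ± 0.13 (limma adjusted p = 0.348). The groups were apart in each. The difference between these effects was −0.92 ± 0.16, with a limma adjusted p of 0.396, so it did not pass. Macrophages express much Abcg1, and the macrophage marker mean was lower with sunitinib in both fats. In inguinal fat it was 0.46 and 0.02 with vehicle and −0.34 and −0.15 with sunitinib. The part of macrophage content in the Abcg1 values was not tested. In brown fat, at 6.68 and 6.44 against 6.90 and 6.54, and in liver, at 5.39 and 5.56 against 5.41 and 5.47, the Abcg1 groups overlapped.

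Abca1, which loads cholesterol onto lipid-poor apolipoprotein, lay lower in the 3 fats. In brown fat it read 9.62 and 9.29 with vehicle and 8.96 and 9.28 with sunitinib, a difference of −0.34 ± 0.15. The inguinal libraries went from 11.91 and 12.00 to 11.77 and 11.59, a difference of −0.27 ± 0.12. The gap between the groups was narrow in brown fat and wider in inguinal fat. Epididymal fat went from 12.22 and 12.25 to 11.99 and 12.18, a difference of −0.15 ± 0.09. In liver it read 10.11 and 10.21 against 10.21 and 10.24, a difference of 0.07 ± 0.07.

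Mylip encodes a ubiquitin ligase that sends lipoprotein receptors for degradation. In liver it read 6.37 and 6.63 with vehicle and 6.09 and 6.18 with sunitinib, a difference of −0.37 ± 0.09 (limma adjusted p = 0.225), and unlike for most SREBP2-group genes the sunitinib livers were close together. Inguinal fat went from 9.22 and 9.12 to 9.29 and 9.65, a difference of 0.30 ± 0.16. The groups were apart in both tissues, in opposite directions. Epididymal fat went from 8.86 and 8.98 to 8.75 and 8.66, a difference of −0.21 ± 0.07, and in brown fat, at 7.55 and 7.50 against 7.64 and 7.52, the groups overlapped.

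Abcg5 and Abcg8 form the transporter that secretes sterol into bile, and both were tested in liver alone. Abcg5 read 10.42 and 10.35 with vehicle and 10.40 and 10.42 with sunitinib. Abcg8 read 10.98 and 10.82 with vehicle and 10.87 and 10.88 with sunitinib. The groups overlapped for both genes, at differences of 0.02 ± 0.07 and −0.02 ± 0.08.

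**Figure D3:**
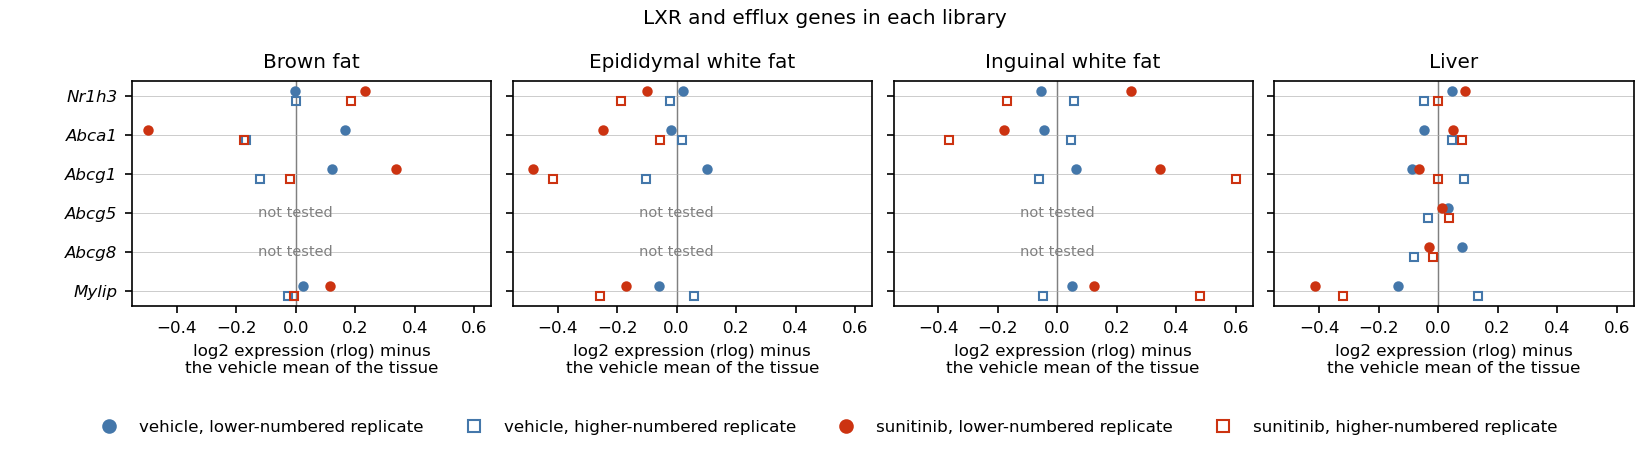
Each point is 1 library's log2 expression of a LXR-group gene minus the vehicle mean of the tissue (horizontal axis, rlog units), with blue for vehicle, red for sunitinib, circles for the lower and squares for the higher replicate number. Abcg1 lies left of the vehicle libraries in epididymal fat (−0.45) and right of them in inguinal fat (0.47), and Abcg5 and Abcg8 were tested in liver only.

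Across the 4 tissues, 13 of the 22 SREBP2-group genes tested everywhere lay below 0 in each tissue, a share of 59.1%, against 8.84% of the 11113 genes tested everywhere. They were Hmgcs1, Mvk, Pmvk, Mvd, Idi1, Fdps, Lss, Cyp51, Nsdhl, Hsd17b7, Sc5d, Dhcr7 and Insig1. For Hmgcs1, Mvk, Lss, Nsdhl and Dhcr7 both sunitinib libraries lay below both vehicle libraries in all 4 tissues. These are 5 of 22, a share of 22.7%, against 0.873% of all genes. In at least 3 tissues this held for 11 of 22, against 7.93%. None of the 4 LXR-group genes tested everywhere lay below 0, or above 0, in each tissue. Each tissue had its own vehicle libraries, but the same mice may have given several tissues, so the tissues may not be independent. Pmvk in brown fat (−0.0071) and Hsd17b7 in liver (−0.0025) were near 0 and turned sign with median centring and quantile normalization, to 0.0029 and 0.0036. With 1 library left out, Idi1 in epididymal fat and liver, Cyp51 in brown fat and liver, and Insig1 in brown fat also changed sign.

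The size of the effect was compared between tissues with an interaction contrast in limma for each of the 6 pairs. Between brown and epididymal fat, 2 of 26 members differed, where 3.64% of all genes did. Dhcr7 differed by −0.15 in brown fat and −0.71 in epididymal fat, a gap of 0.56 ± 0.11 (limma adjusted p = 0.0414). Ebp differed by 0.22 and −0.23, a gap of 0.45 ± 0.09 (limma adjusted p = 0.0451). At an unadjusted p below 0.05, 9 of 26 members differed in this pair, where 22% of all genes did. Without a filter on low values 0 members passed, with 0.0523 the smallest limma adjusted p.

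In the other 5 pairs limma called 0 of 26 members. The share of all genes called was 0.0314% for brown against inguinal fat, 0% for brown fat against liver, 0% for epididymal against inguinal fat, 3.95% for epididymal fat against liver and 0.043% for inguinal fat against liver. At an unadjusted p below 0.05 there were 4 members for brown against inguinal fat, where 13.6% of all genes passed that level, and 9 for brown fat against liver, where 14.4% did. Epididymal against inguinal fat had 4, against 10.1% of all genes, and epididymal fat against liver had 8, against 18.8%. Inguinal fat against liver had 5, against 13.7%. Insig1, at −0.16 in brown fat and −0.88 in inguinal fat, had the smallest limma adjusted p among the 26 members in its pair, 0.225. Stard4, at 0.34 in brown fat and −0.09 in liver, had the smallest among the members in its pair, 0.152.

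Other genes of sterol handling were followed in lists, to which the all-gene shares given above for each tissue and threshold apply. Of 8 genes for SREBP processing and sterol-regulated degradation, such as the protease genes Mbtps1 and Mbtps2, limma called 0 in each tissue. At an unadjusted p below 0.05 there was 1 in brown fat, Rnf139 at −0.21 ± 0.07, and 0 elsewhere. The list medians lay between −0.06 and 0.03. Of 11 isoprenoid and sterol branch enzymes tested, 0 passed in any tissue, with 2, 1, 2 and 1 at an unadjusted p below 0.05 in brown, epididymal and inguinal fat and liver. The list medians were 0.007, 0.052, 0.017 and −0.024 in the same order, with 5, 2, 4 and 7 of 11 below 0. Nus1, a subunit of the dolichol-making transferase, was the lowest of the list in both white fats. It stood at −0.49 ± 0.09 in inguinal fat and −0.34 ± 0.08 in epididymal fat, and at 0.06 ± 0.07 in brown fat. The highest value of the list was 0.87 in inguinal fat and 0.21 in epididymal fat.

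Genes of sterol uptake, storage and transport fell in epididymal fat, 3 of 14 tested, with a list median of −0.38 and 12 of 14 below 0, where 2.06% of all genes fell and 46.7% lay below 0. Lipa, the lysosomal acid lipase that frees cholesterol from its esters, read 11.67 and 11.82 with vehicle and 10.57 and 10.60 with sunitinib, and it fell by 1.16 ± 0.08 (limma adjusted p = 0.0121). Soat1, which esterifies cholesterol, fell by 0.63 ± 0.06 (limma adjusted p = 0.0238). Nceh1, a neutral cholesteryl ester hydrolase, fell by 0.81 ± 0.12 (limma adjusted p = 0.0492). Macrophages express all 3 genes, and 7 of 9 macrophage markers fell in the same libraries. The part of macrophage content in the differences of these genes was not tested. In the other tissues 0 of the list passed in limma, with 3, 3 and 3 at an unadjusted p below 0.05 in brown fat, inguinal fat and liver. Inguinal fat had Vldlr, a lipoprotein receptor gene, at −0.85 ± 0.12 (limma adjusted p = 0.308) and Lipa at −0.61 ± 0.13. In brown fat Scarb1, which takes up cholesteryl ester from high-density lipoprotein, stood at 0.37 ± 0.10.

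Of the LXR partner Nr1h2 and other LXR targets, Pltp, the phospholipid transfer protein gene, fell in epididymal fat by 0.91 ± 0.13 (limma adjusted p = 0.0484), the single call among 9 tested, where 2.06% of all genes fell, with a list median of 0.03. Pltp stood at −0.86 ± 0.12 in inguinal fat (limma adjusted p = 0.308), −0.46 ± 0.12 in liver and −0.18 ± 0.10 in brown fat. In those tissues limma called 0 of the list, with 2, 4 and 2 at an unadjusted p below 0.05.

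Fatty acid synthesis genes, which the related factor SREBP1 drives, had medians of either sign. In epididymal fat the median was 0.30, and Acaca, the acetyl-CoA carboxylase gene, rose by 0.70 ± 0.08 (limma adjusted p = 0.034), 1 of 13 tested, where 0.277% of all genes rose, while the SREBP2-group median was −0.19. At an unadjusted p below 0.05, 4 of 13 were higher and 0 lower there, against 8.14% and 11.9% of all genes. In brown fat the median was −0.46, with 0 calls in limma and 7 of 13 lower at an unadjusted p below 0.05, against 6.98% of all genes. Acly, which supplies cytosolic acetyl-CoA to both routes, stood at −0.87 ± 0.14, and Me1, the malic enzyme that supplies NADPH, at −0.71 ± 0.13. In inguinal fat the median was −0.03, with 0 calls in limma and 0 genes at an unadjusted p below 0.05. In liver the median was −0.34, 12 of 13 genes were below 0, and Thrsp, a lipogenic gene, fell by 0.73 ± 0.09 (limma adjusted p = 0.0178). Liver had 10 of 13 lower at an unadjusted p below 0.05, against 5.17% of all genes.

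Bile acid synthesis is the route by which liver turns cholesterol into an excreted product. Cyp7a1, its rate-limiting enzyme, fell in liver by 1.67 ± 0.11 (limma adjusted p = 0.000797), and Cyp7b1, of the alternative route, rose by 0.65 ± 0.08 (limma adjusted p = 0.0178). These were 1 lower and 1 higher of 7 tested, where 0.0726% of all genes fell and 0.121% rose.

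**Figure D4:**
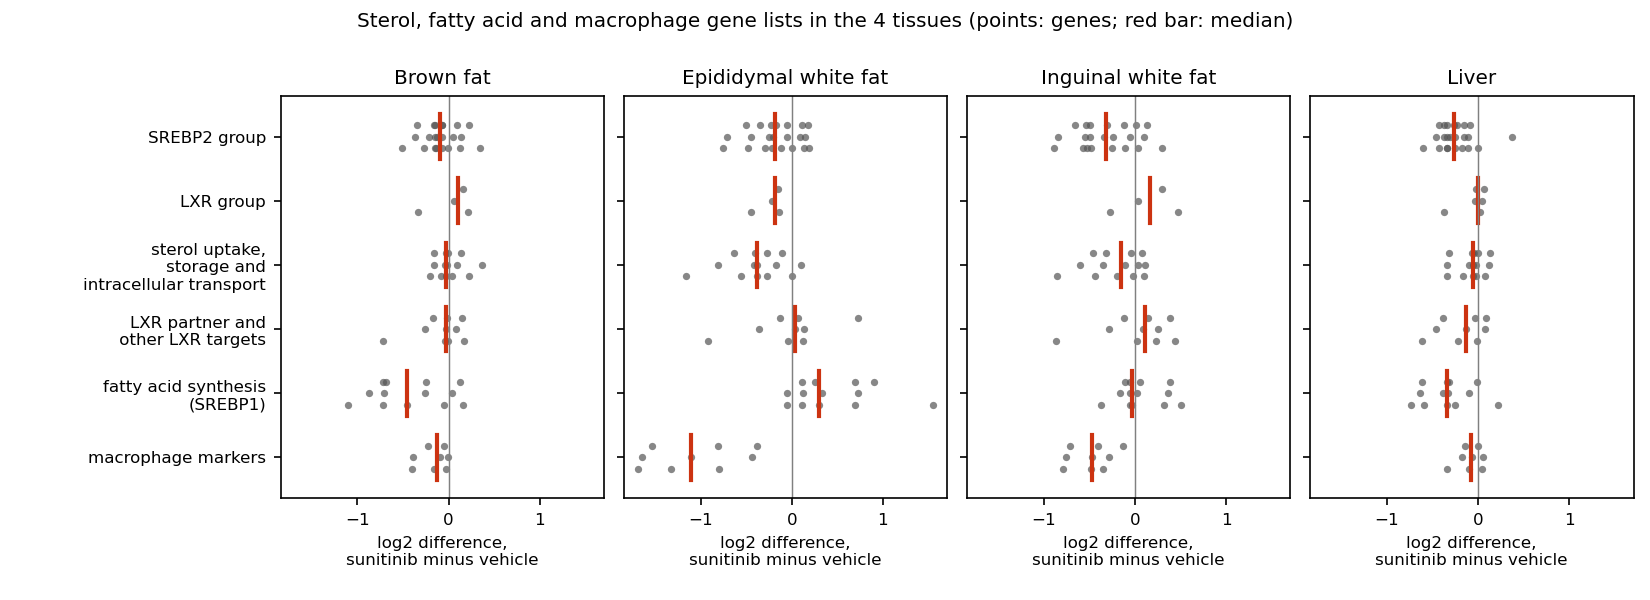
Each point is the log2 difference, sunitinib minus vehicle, of 1 tested gene (horizontal axis, rlog units), by list and tissue, and the red bar is the median of the list. The SREBP2-group median lies left of 0 in each tissue (−0.10, −0.19, −0.32 and −0.26), the fatty acid median lies right of 0 in epididymal fat only (0.30), and the macrophage median in epididymal fat is −1.11.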

How the data were processed

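RNA sequencing libraries of 4 mouse tissues were compared by treatment within each tissue. The authors deposited regularized log2 values of each gene, with a table for each tissue. The submitters' processing notes name the build mm9 and the tools DESeq2, bedtools, TopHat2 2.1.1 and bcl2fastq 2.17.1.14. Their roles, the annotation, the counting settings and any use of strand were not given in the sources used here. Read totals are unknown, so no counting interval is given. Shrinkage of low counts understates the change of low genes and their spread. Each table was fitted whole with limma 3.58.1 in R 4.3.3 (mean of at least 3, variance trend, 2 residual degrees of freedom, two-sided, Benjamini-Hochberg over all genes tested). The fit was run on simulated data with independent noise per gene, which does not test effects shared across genes within a library. With 2 against 2 libraries an exact permutation test cannot go below 0.333, so none was used. No 2 libraries were identical. Differences between tissues were interaction contrasts. All members were described, with values per library for those called in any tissue, Srebf2, Insig1, Insig2, Hmgcs1, Stard4, Nsdhl and the LXR group, and for Ebp where it differed between tissues. List genes named were those called and up to 3 by smallest p per tissue. Hmgcs1 and Stard4 beyond the largest differences, and Ebp, were given in full after their values were seen. The members and lists were chosen with earlier results of these data known. Promoters were RefSeq sequences of GRCm38.p6, matched by symbol, and no coordinates were carried between builds.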

Additional observations from a re-analysis of the deposited data

Results flagged for a closer look

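The effect of sunitinib on 2 of 26 members differed between brown and epididymal white fat, by an interaction contrast in limma. Of all genes, 3.64% differed in this pair. Neither member passed without a filter on low values, where the smallest limma adjusted p was 0.0523. The contrast was not refitted with a library left out. For Dhcr7 the effect in brown fat minus that in epididymal fat was 0.556 ± 0.112 (limma adjusted p = 0.0414), from effects of −0.15 and −0.71. For Ebp it was 0.452 ± 0.0944 (limma adjusted p = 0.0451), from effects of 0.22 and −0.23, with the groups apart in both fats. Groups had 2 libraries, too few for a search for single libraries far from the rest of their group.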

How the results depend on the processing

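Values of 2 libraries per group rest on each library, and depth is unknown, so a member at low rlog may have changed unseen. Counted over members and alternatives, the 4 genes that passed kept their call 36 times and lost it 12 times. Members that did not pass stayed so 1138 times, passed 56 times and changed sign 35 times. No scaling moved the median of all genes by more than 0.033. The count of SREBP2-group members called, 0 in brown fat, ranged from 0 to 4 with 1 library left out. In epididymal fat it was 4, then 2 with no filter, and 0 to 5 with 1 library left out. In inguinal fat it was 0, then 8 in 1 fit over the 4 tissues, and 0 to 8 with 1 library left out. In liver it was 0, and 0 to 16 with 1 library left out. With 1 library left out the SREBP2-group median ranged from −0.15 to −0.055 in brown fat, −0.21 to −0.13 in epididymal fat, −0.41 to −0.29 in inguinal fat and −0.47 to −0.086 in liver. The LXR-group median ranged from −0.013 to 0.17 in brown fat, −0.22 to −0.16 in epididymal fat, 0.15 to 0.19 in inguinal fat and −0.0094 to 0.037 in liver. It was −0.15 with no filter and −0.14 with quantile normalization in epididymal fat, and 0.034, 0.22 and 0.14 with no filter, quantile normalization and median centring in inguinal fat. The count of members that differed between tissues, 2, became 0 with no filter. Where the lone library left in an arm had no partner, its spread was taken from the other arm. The cause of these moves was not tested beyond the fewer libraries.

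The fit with the replicate block called 0, 4 and 0 SREBP2-group members in brown, epididymal and inguinal fat, so the block changed no call, with smallest adjusted p-values of 0.449, 0.0209 and 0.258. The numbers are not tied to mice, and the differences within treatment correlated at −0.256, 0.224 and 0.108 across genes in these fats. In liver, with the libraries of each treatment in number order, the correlation was 0.435. A crossed pairing in brown fat, added after seeing the data, called 0. The titles of the liver libraries share no numbers between treatments, although the data columns do, and no block was fitted there. Signs of small values changed with median centring for Pmvk in brown fat (0.0029), Sqle in epididymal fat (−0.0066), Tm7sf2 (−0.00045) and Stard4 (−0.026) in inguinal fat, and with quantile normalization for Hsd17b7 in liver (0.0036). With 1 library left out, further signs changed, given here as the lowest and highest difference. In brown fat these were Pmvk −0.18 to 0.16, Sqle −0.18 to 0.039, Cyp51 −0.16 to 0.015, Fdft1 −0.34 to 0.076, Insig1 −0.34 to 0.017, Abcg1 −0.020 to 0.34, Mylip −0.0061 to 0.11. In epididymal white fat these were Sqle −0.041 to 0.046, Idi1 −0.24 to 0.0099, Fdft1 −0.047 to 0.24. In inguinal white fat these were Tm7sf2 −0.055 to 0.12, Stard4 −0.27 to 0.28, Nr1h3 −0.17 to 0.25, Acat2 −0.15 to 0.36, Fdft1 −0.31 to 0.095, Srebf2 −0.14 to 0.75, Insig2 −0.23 to 0.0048. In liver these were Hsd17b7 −0.21 to 0.21, Abcg8 −0.10 to 0.056, Nr1h3 −0.0020 to 0.093, Abcg1 −0.12 to 0.055, Abcg5 −0.0089 to 0.057, Idi1 −0.72 to 0.037, Sqle −0.57 to 0.27, Cyp51 −0.52 to 0.065.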
